A study of Mus musculus with 5 samples.

Results

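Ccl2, Ccl7, Ccl8 and Ccl12 encode secreted CC chemokines, and Ccr2 encodes the receptor through which CCL2, CCL7 and CCL12 act on monocytes. These 5 genes were chosen by name from the 16498 genes of a single-cell expression table of the mouse aortic arch, and all 5 were present in it. CCL2 is the best-known signal that draws Ccr2-bearing monocytes out of the bone marrow and into inflamed tissue. CCL7 acts on the same receptor, CCL12 is a mouse chemokine closely related to CCL2, and mouse CCL8 is best known as a ligand of another receptor, CCR8. In atherosclerosis, monocytes that enter the arterial wall become macrophages, which take up lipid and become foam cells.

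Every mouse carried the Apoe-/- deletion, which raises plasma cholesterol, and ate normal chow for 28 weeks. The control group was Oasl1+/+Apoe-/- (2 libraries, written Apoe-/- here), and the other group was labelled Oasl1-/-Apoe-/- (3 libraries). Oasl1 is an interferon-stimulated gene, and the germline knockout removes its promoter and second exon in every cell of the mouse. Live cells of the aortic arch from 6 mice were pooled and sorted with DAPI, and nothing in the labels says that the libraries of a group came from different animals, so p-values below measure the spread between libraries, which may be technical. Oasl1 itself went against the label, with 27 and 16 UMIs in all in the first group and 299, 257 and 315 in the second. UMIs are molecular tags that count transcripts. Whether these Oasl1 UMIs came from outside the deleted part was not tested, since the values hold no read positions. The label was thus left unchecked, and the second group is called the libraries labelled Oasl1-/-Apoe-/- throughout.

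The libraries held 3212 to 4338 cells and 16959976 to 19813039 UMIs, with a median of 4495 to 5186.5 UMIs per cell. The median mitochondrial share of a cell's UMIs was 4.91 and 5.004% in the Apoe-/- libraries and 3.90 to 4.03% in the others, and 165 cell barcodes occurred in more than 1 library. Cells were grouped into 24 clusters without using the chemokines or their receptors, and 21 clusters were named by marker genes. The names mean cells like that type (macrophage-like, monocyte-like and so on). Of the 3 clusters left without a name, one had macrophage markers but few UMIs per cell (650 cells), one had endothelial and lymphatic genes such as Nts and Mmrn1 (211 cells), and one was led by genes such as Itih4, Igfbp2 and Lcn2 (900 cells). The labelled tissue matched its markers, since smooth muscle cells with Myh11 and Acta2 formed the most numerous class, with 1330 to 2805 cells per library.

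The 4 ligand genes lie in 1 block on mouse chromosome 11, all on the plus strand (GRCm38, GENCODE annotation). Ccl2 (ENSMUSG00000035385) is at chr11:82035571-82037453, Ccl7 (ENSMUSG00000035373) at chr11:82045712-82047525, Ccl12 (ENSMUSG00000035352) at chr11:82101845-82103400 and Ccl8 (ENSMUSG00000009185) at chr11:82115185-82116799. Ccl11, an eosinophil chemokine gene, stands between Ccl7 and Ccl12. Ccr2 (ENSMUSG00000049103) is at chr9:124101950-124113557 on the plus strand. The longest stretch of transcript sequence that any pair of the 5 genes shares exactly is 23 bases, between Ccl2 and Ccl7.

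The promoters of Ccl8 and Ccl12 are shown because both of these neighbouring genes were found mainly in macrophages and rose there in the libraries labelled Oasl1-/-Apoe-/-. Each line gives the 250 bases before the RefSeq start site (GRCm38.p6, plus strand, 5′ to 3′), at chr11:82114935-82115184 for Ccl8 and chr11:82101595-82101844 for Ccl12, with the TATA box letters in capitals.
Ccl8: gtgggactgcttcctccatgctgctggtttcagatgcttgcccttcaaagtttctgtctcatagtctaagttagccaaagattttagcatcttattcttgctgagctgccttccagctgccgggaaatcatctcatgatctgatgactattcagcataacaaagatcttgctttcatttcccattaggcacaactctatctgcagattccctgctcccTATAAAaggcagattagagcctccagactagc
Ccl12: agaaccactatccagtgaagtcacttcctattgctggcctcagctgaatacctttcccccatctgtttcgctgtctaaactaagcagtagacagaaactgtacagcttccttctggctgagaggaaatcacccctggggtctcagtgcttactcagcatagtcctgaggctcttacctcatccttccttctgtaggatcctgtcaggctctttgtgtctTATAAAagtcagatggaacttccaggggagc
The letters TATAAA begin 32 bases before the start of Ccl8 and 31 before that of Ccl12, and occur in the same 50 bases before the start in 2.63% of 32851 promoters. Both strands of the 250 bases were searched for the interferon response element GAAA, any 2 bases, GAAA (in 2.98% of promoters), the gamma-activated site TTCNNNGAA (7.02%), the AP-1 element TGANTCA (6.75%) and the NF-kB element (7.25%), with no match in the windows of Ccl8, Ccl12 or Ccr2. That says only that these letters are not in these windows.

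Across all cells of a library, each of the 5 transcripts was higher in the libraries labelled Oasl1-/-Apoe-/-. Levels are means over cells of UMIs per 10000 UMIs of the cell. Ccl2 was at 0.569 and 0.522 UMIs per 10000 in the Apoe-/- libraries and at 2.96, 2.64 and 2.71 in the others. Ccl7 was at 0.446 and 0.367 against 3.07, 2.53 and 2.96. Ccl8 was at 0.151 and 0.183 against 1.65, 1.82 and 1.37.

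Ccl12 was at 0.172 and 0.170 UMIs per 10000 in the Apoe-/- libraries and at 1.31, 1.12 and 1.37 in those labelled Oasl1-/-Apoe-/-. Ccr2 was the lowest of the 5, at 0.0960 and 0.0832 against 0.202, 0.234 and 0.183. The groups overlapped for none of the 5, and the share of all genes without overlap was not counted. As ratios of the group means, the level was 5.08-fold higher for Ccl2, 7.02-fold for Ccl7, 9.68-fold for Ccl8, 7.41-fold for Ccl12 and 2.303-fold for Ccr2. On the log2(value + 0.05) scale the differences were 2.25 ± 0.0612 (SE), 2.67 ± 0.0900, 2.94 ± 0.106, 2.57 ± 0.0786 and 0.87 ± 0.0920 in that order, with limma adjusted p-values from 8.08e-09 for Ccl2 to 3.59e-05 for Ccr2. Of the 9836 genes tested in this way 20.5% were called higher, so a call alone is common here. A mean over all cells mixes the number of cells of a type with the transcripts per cell.

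When every library was weighted to the same cell type shares, the log2 differences fell to 1.16 for Ccl2, 1.61 for Ccl7, 2.03 for Ccl8, 1.60 for Ccl12 and 0.38 for Ccr2, and all 5 kept an adjusted p under 0.05 (limma, highest 0.0222 for Ccr2). Split by type, the change in level within types made up 53.5% of the Ccl2 difference, 59.0% for Ccl7, 66.3% for Ccl8 and 59.5% for Ccl12. The change in each type's share of the cells of a library made up the rest. Macrophages counted as 1 type in this split, so a change in which macrophage clusters were present counts as a change in level. For Ccr2 the order was the other way round, with 41.8% from levels within types and 58.2% from shares of cells. Macrophages numbered 291 and 297 in the Apoe-/- libraries and 588, 553 and 618 in the others, or 7.14 and 6.85% of cells against 17.3, 17.2 and 19.1%. Monocytes numbered 114 and 108 against 109, 106 and 97, or 2.8 and 2.49% of cells against 3.2, 3.3 and 3.0%.

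**Figure D1:**
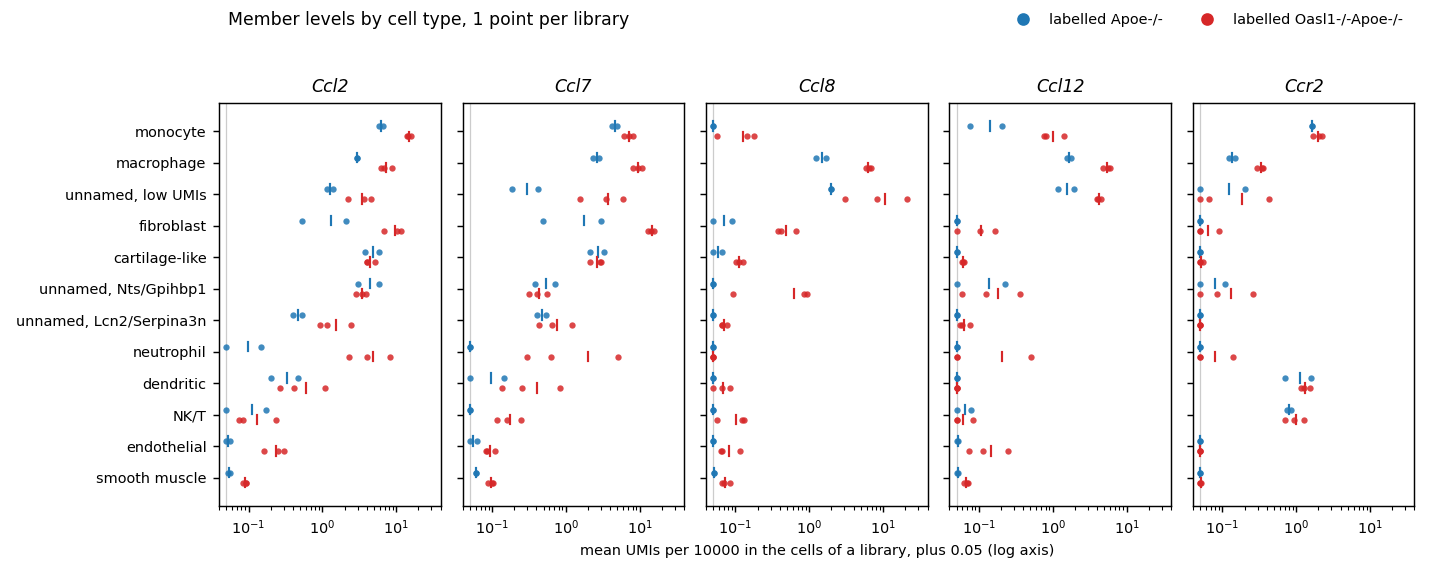
Mean UMIs per 10000 plus 0.05 (x axis, log scale) of each gene (panels) in 12 cell types (y axis); each point is 1 library and each tick the group mean, in blue for Apoe-/- and red for the libraries labelled Oasl1-/-Apoe-/-. Ccl2 and Ccl7 are high in several types, Ccl8 and Ccl12 in macrophages and the low-UMI cluster, and Ccr2 in monocytes, dendritic and NK/T cells.

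Ccl2 was highest per cell in monocytes. Its level there was 6.51 and 5.81 UMIs per 10000 in the Apoe-/- libraries and 14.2, 13.8 and 15.95 in those labelled Oasl1-/-Apoe-/-. In macrophages it was 2.86 and 2.87 against 8.64, 6.16 and 6.84. In cartilage-like cells, which express Col2a1 and Acan, it was 3.78 and 5.75 against 3.93, 5.03 and 4.01. That class rests on the clustering, with 51 and 50 cells against 190, 200 and 205, but 9 and 7 against 40, 47 and 52 when cells were assigned one by one from their markers, and 4 and 1 against 17, 26 and 25 when the chemokine genes took part in the clustering. Smooth muscle cells were close to 0, at 0.00331 and 0.00673 against 0.0342, 0.0418 and 0.0413, and B cells had no Ccl2 UMI in 81 and 49 cells (95% Wilson upper bounds 4.53 and 7.27%). Over the 5 libraries, macrophages were lower than monocytes by a log2 difference of -1.06 (limma adjusted p = 0.00257, with 26.8% of genes called between these types). Neighbours below that did not differ beyond their spread: macrophages minus cartilage-like cells gave 0.015 (95% interval -0.37 to 0.40, adjusted p = 0.938), macrophages minus fibroblasts 0.55 (-0.16 to 1.25, adjusted p = 0.160) and cartilage-like cells minus fibroblasts 0.53 (adjusted p = 0.209). The shares of all genes called in these pairs were 68.1%, 55.2% and 17.3%.

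In monocytes, Ccl2 was 2.38-fold higher in the libraries labelled Oasl1-/-Apoe-/- (log2 difference 1.24 ± 0.118, SE, limma adjusted p = 6.84e-08), where 2.09% of genes were called higher. In macrophages it was 2.52-fold higher (1.31 ± 0.106, adjusted p = 1.11e-06), where 8.52% were called higher. Different clusters made up the macrophages of the groups, one led by Gpnmb holding 54.3 and 58.6% of them in the Apoe-/- libraries and 18.1 to 22.5% in the others. In cartilage-like cells the groups overlapped and the difference was -0.12 (-0.52 to 0.28, adjusted p = 0.792), where 1.02% were called higher. A few cells held many of the UMIs: 1 macrophage held 33.9% of the Ccl2 UMIs of macrophages in Apoe-/- library 1. In cartilage-like cells of that library 1 cell held 62.2% of them, and leaving the library out gave a difference of -0.42 there with an adjusted p of 0.04002.

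Fibroblasts held little Ccl2 in the Apoe-/- libraries, at 0.480 and 2.01 UMIs per 10000, and 11.7, 10.2 and 6.87 in those labelled Oasl1-/-Apoe-/-. The Apoe-/- libraries differed from each other several-fold, and the lowest of the others was still above both. The log2 difference was 3.17 ± 0.271 (SE, limma adjusted p = 8.40e-13), with 2.04% of genes called higher in fibroblasts. That p used a spread shared by genes of like level, and with robust shrinkage, which lets a gene of large spread keep its own, the adjusted p was 0.258. With cells assigned one by one the difference was 1.29 (adjusted p = 0.00100), and with the chemokine genes in the clustering, where fibroblasts numbered 148 to 306 per library in place of 64 to 107, it was 1.57 (adjusted p = 0.000134). In library 1 of those labelled Oasl1-/-Apoe-/-, 1 of 89 fibroblasts held 52.9% of the Ccl2 UMIs. Monocyte markers summed to 3.15 and 3.01 against 13.1, 14.1 and 10.4 UMIs per 10000 in these cells, macrophage markers to 1.25 and 0.979 against 1.73, 1.13 and 1.35, and their part in the result was not tested.

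Cells named endothelial held few Ccl2 UMIs, 0 and 1 in the Apoe-/- libraries and 10, 8 and 8 in the others. They numbered 174 to 388 per library. Their level was 0 and 0.00601 against 0.199, 0.251 and 0.109 UMIs per 10000, above that of smooth muscle cells in the libraries labelled Oasl1-/-Apoe-/-. The log2 difference, which depends on the 0.05 added to levels near 0, was 2.11 (limma adjusted p = 3.75e-05, with 1.17% of genes called higher), and Ccl2 passed the filter on low levels only through the group where it was high. Macrophage markers in endothelial cells summed to 0.374 and 0.797 against 1.48, 2.48 and 0.970, and their part was not tested. Neutrophils held 2 and 0 Ccl2 UMIs against 14, 80 and 6 in 20 to 27 cells, again past the filter only through the second group, a call (adjusted p = 9.27e-06, 0.515% called higher) that leaving out any 1 library removed (adjusted p 0.112 to 0.743). The low-UMI cluster was at 1.35 and 1.10 against 4.44, 2.14 and 3.58 (log2 difference 1.38, adjusted p = 0.00498, 1.03% called higher), a call lost without Apoe-/- library 2 (adjusted p = 0.106) and without the filter on low levels (0.0678).

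The cluster led by Itih4 and Lcn2 was at 0.485 and 0.355 UMIs of Ccl2 per 10000 against 0.869, 1.11 and 2.40 (log2 difference 1.56, limma adjusted p = 0.000132, 0.958% called higher), with an adjusted p of 0.530 under robust shrinkage. The cluster with Nts and Mmrn1, left without a name, had 8 endothelial markers raised beside the lymphatic ones. Ccl2 there was at 5.79 and 2.99 against 2.82, 3.44 and 3.87, far above the cells named endothelial. The groups overlapped, and 1.4% of genes were called higher.

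Ccl7 followed Ccl2 across cell types but was less skewed to monocytes. Monocytes were at 4.88 and 4.15 UMIs per 10000 in the Apoe-/- libraries and at 7.14, 6.12 and 8.08 in those labelled Oasl1-/-Apoe-/-. Macrophages were at 2.80 and 2.31 against 10.7, 8.03 and 9.52, so that they stood below monocytes in the first group and above them in the second. The fold was 3.69 in macrophages (log2 difference 1.86 ± 0.106, SE, limma adjusted p = 4.21e-08) and 1.58 in monocytes (0.65 ± 0.142, adjusted p = 0.00617). Without Apoe-/- library 2 the monocyte call was lost (adjusted p = 0.180). The macrophage difference exceeded the monocyte one by 1.21 (0.62 to 1.81) on the log2 scale, with an adjusted p of 0.304 over all genes, so the test of the difference did not pass.

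Fibroblasts held 0.439 and 2.96 UMIs of Ccl7 per 10000 in the Apoe-/- libraries and 14.4, 15.8 and 13.1 in those labelled Oasl1-/-Apoe-/-, the highest Ccl7 level of the named types in the latter. The log2 difference was 3.57 ± 0.299 (SE, limma adjusted p = 3.92e-13, and 0.300 under robust shrinkage), and it was 1.86 and 2.01 with the other ways of naming cells. Cartilage-like cells were at 3.21 and 2.10 against 2.07, 2.87 and 2.94, a difference of -0.00076 (-0.45 to 0.45, adjusted p = 0.999). The low-UMI cluster was at 0.367 and 0.138 against 5.93, 1.52 and 3.48 (log2 difference 3.52, adjusted p = 1.72e-06). Over all libraries Ccl7 in macrophages was above that in cartilage-like cells by 0.90 (adjusted p = 0.00181), and did not differ beyond the spread from monocytes (-0.20, -0.50 to 0.095, adjusted p = 0.263) or fibroblasts (0.24, -0.70 to 1.18, adjusted p = 0.632).

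Ccl8 was a macrophage transcript in these cells. Macrophages held 1.197 and 1.65 UMIs per 10000 in the Apoe-/- libraries and 6.75, 5.73 and 6.34 in those labelled Oasl1-/-Apoe-/-, a 4.401-fold difference (log2 2.11 ± 0.110, SE, limma adjusted p = 1.82e-08). The low-UMI cluster was at 1.90 and 1.90 against 8.26, 20.8 and 3.01, and its library values spread so widely that the call (log2 2.05, adjusted p = 0.00279) was lost under robust shrinkage (adjusted p = 0.651) without either Apoe-/- library (0.0943 and 0.0784) and without the filter on low levels (0.198). Monocytes held 0 UMIs of Ccl8 in both Apoe-/- libraries and 1, 4 and 5 in the others, and were below the filter on low levels. Macrophages were above monocytes by 5.33 on the log2 scale (adjusted p = 0.000153).

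Fibroblasts held 1 and 0 Ccl8 UMIs in the Apoe-/- libraries and 8, 16 and 9 in the others (log2 difference 2.81, limma adjusted p = 0.000467). That call was lost with means of the deposited log values (adjusted p = 0.0522) and with limma-voom on UMIs (0.294), and Ccl8 passed the filter there only through the group where it was high. In the cluster with Nts and Mmrn1, Ccl8 held 0 and 0 against 91, 31 and 2 UMIs, of which 85 and 31 were in 1 cell each in the first and second libraries, and its call (adjusted p = 0.0364) was lost in 10 of the alternatives.

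Of the named types that could be tested, macrophages were also highest in Ccl12. Their level was 1.71 and 1.49 UMIs per 10000 in the Apoe-/- libraries and 5.61, 4.82 and 5.92 in those labelled Oasl1-/-Apoe-/-. The difference was 3.401-fold (log2 1.73 ± 0.0899, SE, limma adjusted p = 1.82e-08). The low-UMI cluster was at 1.14 and 1.89 against 3.93, 4.4 and 4.12 (log2 1.47, adjusted p = 0.000452). Monocytes held little in the first group, 0.0254 and 0.154, against 0.759, 0.703 and 1.39 in the second, or 2 and 7 UMIs against 51, 45 and 60. Their ratio of group means was 10.6 (log2 2.95 ± 0.380, adjusted p = 1.00e-05). Macrophages stayed above monocytes by 3.13 on the log2 scale over all libraries (adjusted p = 0.00057). Dendritic cells held no Ccl12 UMI in any library, and fibroblasts held 2 in all. Macrophage markers in monocytes summed to 49.2 and 40.1 against 31.6, 35.2 and 39.0 UMIs per 10000, and their part in the Ccl12 result was not tested.

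The cells that supplied each ligand were described by the share of the summed UMIs per 10000 of a library. Monocytes gave 32.0 and 27.8% of Ccl2 in the Apoe-/- libraries and 15.4, 17.3 and 17.7% in those labelled Oasl1-/-Apoe-/-. For Ccl7 they gave 30.6 and 28.2% against 7.46, 7.98 and 8.21%. Macrophages gave 35.8 and 37.6% of Ccl2 against 50.5, 40.2 and 48.3%, and 44.8 and 43.2% of Ccl7 against 60.5, 54.6 and 61.6%. Fibroblasts gave 1.33 and 5.86% of Ccl2 against 10.4, 12.8 and 7.37%, although they were at most 107 cells of a library. The groups did not overlap for any of these 5 shares. They did for the fibroblast share of Ccl7, at 1.545 and 12.3% against 12.27, 20.8 and 12.9%. How many of all 85 shares were without overlap was not counted. By share of plain UMIs, in which deep cells weigh more, 3 of the 5 shares without overlap did overlap. Monocytes then gave 25.1 and 17.2% of Ccl2 against 16.3, 18.9 and 16.2%, and macrophages 40.3 and 45.1% of Ccl2 against 49.7, 36.3 and 43.6% and 46.3 and 54.2% of Ccl7 against 61.3, 53.8 and 58.5%. The monocyte share of Ccl7, at 23.6 and 20.95% against 11, 10.8 and 9.84%, and the fibroblast share of Ccl2 still did not overlap.

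For Ccl8, macrophages gave 56.7 and 61.9% in the Apoe-/- libraries against 70.6, 54.1 and 88.6%, with the low-UMI cluster giving 41.4 and 32.1% against 23.1, 41.6 and 7.35%, and these overlapped. For Ccl12, macrophages gave 70.9 and 60.3% against 74.1, 74.0 and 82.6%. With 2 and 3 libraries there are 10 splits, so a two-sided exact permutation p cannot be below 0.1, and the smallest over the 85 shares tested was that value, with an adjusted p of 0.5. When cells were instead assigned one by one from their markers, the fall in the monocyte share of Ccl7 shrank from -21.5 to -2.67 percentage points, so the sizes rest on the clusters.

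Ccr2 was carried by monocytes, dendritic cells and NK/T cells. Monocytes were at 1.57 and 1.61 UMIs per 10000 in the Apoe-/- libraries and 1.97, 1.63 and 2.20 in those labelled Oasl1-/-Apoe-/-. Dendritic cells were at 1.53 and 0.662 against 1.24, 1.47 and 1.12, and NK/T cells at 0.705 and 0.807 against 0.893, 1.25 and 0.653. Macrophages were far lower, at 0.0727 and 0.101 against 0.309, 0.296 and 0.244. Cells named endothelial and B cells had no Ccr2 UMI in any library.

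Over all libraries monocytes exceeded NK/T cells by 1.04 on the log2 scale (limma adjusted p = 0.0127, 44.7% of genes called) and macrophages by 3.08 (macrophage minus monocyte -3.08, adjusted p = 0.000159). Dendritic cells did not differ beyond the spread from their neighbours, with 0.60 (0.019 to 1.18, adjusted p = 0.135, 19.6% called) for monocytes minus dendritic cells and 0.44 (-0.18 to 1.05, adjusted p = 0.220, 38.4% called) for dendritic minus NK/T cells. Macrophages were below NK/T cells by a log2 difference of -2.04 (adjusted p = 0.000103, 55.3% called).

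Between the groups, Ccr2 passed the test in macrophages alone of the types in which it could be tested. The macrophage fold was 3.26 (log2 1.29 ± 0.161, SE, limma adjusted p = 7.76e-05), from 13 and 21 UMIs against 88, 86 and 72. In monocytes the difference was 0.27 (-0.12 to 0.65, adjusted p = 0.609), in dendritic cells 0.32 (-0.29 to 0.92, adjusted p = 0.747, 1.16% of genes called higher) and in NK/T cells 0.24 (-0.36 to 0.84, adjusted p = 0.825, 1.17% called higher). The macrophage difference minus the monocyte one was 1.02 (0.25 to 1.79) with an adjusted p of 0.463 over all genes, so it was not shown to differ between them.

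Monocytes accordingly held a smaller share of all Ccr2, 45.7 and 48.1% in the Apoe-/- libraries against 31.2, 22.98 and 36.1%, and macrophages a larger one, 5.40 and 8.31% against 26.5, 21.7 and 25.6%. Monocyte markers in macrophages summed to 1.31 and 1.34 UMIs per 10000 against 2.19, 2.19 and 2.20, and dendritic markers to 0.0362 and 0.0524 against 0.228, 0.176 and 0.259. Both rose beside Ccr2 in these cells and their part was not tested. Dendritic cells gave 14.1 to 25.4% of Ccr2 in any library and NK/T cells 18.6 to 29.6%, and these shares overlapped between the groups.

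Of the 136 pairs of cell types in which a gene of the 5 could be tested in both types, none differed in its group difference after adjustment over all genes (limma, 53 at an unadjusted p under 0.05). The smallest adjusted p was 0.0696, for Ccl7 in macrophages against cartilage-like cells (log2 1.86), a pair in which 0.402% of genes were called. Without Apoe-/- library 1 that pair was called for Ccl7 and for Ccl2 (adjusted p = 0.0465 and 0.0410), and without Apoe-/- library 2 for Ccl7 (0.0293).

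The share of cells with a transcript was compared after each cell was thinned to 1000 UMIs, which left out 245 Apoe-/- cells and 311 of the others with fewer. Among macrophages, 13.3% (95% Wilson interval 10.8 to 16.3) held a Ccl2 UMI in the Apoe-/- libraries and 24.5% (22.6 to 26.6) in those labelled Oasl1-/-Apoe-/-. For Ccl7 the shares were 10.0 and 20.1%, for Ccl8 5.10 and 14.6%, for Ccl12 6.80 and 18.1% and for Ccr2 1.02 and 2.45%. Smooth muscle cells held a Ccl2 UMI in 0.0563% (0.0192 to 0.165) and 0.197% (0.0996 to 0.387). Their median depths were 4779 and 5033 UMIs against 6446 and 5780 in macrophages. The macrophage shares stood far above those of smooth muscle cells in both groups. Whether the smooth muscle UMIs were free RNA or the cells' own was not tested.

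Before thinning, 28.2 and 46.6% of macrophages held a Ccl2 UMI, against 0.187 and 1.88% of smooth muscle cells. Monocytes held Ccl2 in 19.3 and 33.0% of thinned cells, Ccl7 in 10.1 and 17.5% and Ccr2 in 15.1 and 16.5%. Fibroblasts held Ccl2 in 5.60 and 19.2% and Ccl7 in 6.40 and 26.2%. The library shares did not overlap for the 5 genes in macrophages, for Ccl2, Ccl7 and Ccl12 in monocytes or for Ccl2 and Ccl7 in fibroblasts, each at the smallest exact permutation p of 0.1. The same held for Ccl2, Ccl7 and Ccl8 in smooth muscle cells, where the shares were far lower. It also held for some genes in other types, such as Ccl8 in fibroblasts and Ccl2 and Ccl7 in neutrophils. For Ccr2 in monocytes the library shares overlapped. How many of all genes were without overlap in the share of cells was not counted. Intervals cover counting error only.

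Ccl2 and Ccl7 were found in the same cells. In the libraries labelled Oasl1-/-Apoe-/-, Ccl7 was found in 48.3, 52.0 and 46.9% of the monocytes that held Ccl2 and in 3.92, 5.36 and 6.25% of those that did not. In the Apoe-/- libraries the values were 38.6 and 45.2% against 1.43 and 2.60%. Monocytes with Ccl2 were deeper, with median counts of 4125 to 5450 UMIs against 3520 to 3923 in those without. In macrophages Ccl7 was found in 53.0 to 58.9% of the cells with Ccl2 and in 6.54 to 15.2% of those without, in fibroblasts labelled Oasl1-/-Apoe-/- in 61.1 to 66.7% against 23.3 to 23.9%, and in cartilage-like cells in 45.5 to 63.6% against 0 to 13.4%.

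Ccl8 and Ccl12 also went together in macrophages. Ccl12 was found in 40% of the macrophages with Ccl8 in both Apoe-/- libraries and in 53.7 to 55.6% in the others, against 12.8 to 18.4% and 28.7 to 29.6% of those without Ccl8. The receptor was then set beside the ligands within cells. In monocytes, Ccl2 was found in 34.2 and 26.3% of those with Ccr2 and in 41.1 and 30% of those without in the Apoe-/- libraries, and in 58.1, 51.3 and 48.8% against 50, 44.8 and 51.9% in the others. In macrophages labelled Oasl1-/-Apoe-/-, the 40 to 42 cells with Ccr2 in each library held Ccl2 in 72.5, 60 and 66.7%, against 44.0, 45.2 and 46.0% of those without, and held Ccl8 in 22.5, 12.5 and 11.9% against 28.7, 31.0 and 28.5%. These are descriptions of cells of the same libraries, with no test.

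**Figure D2:**
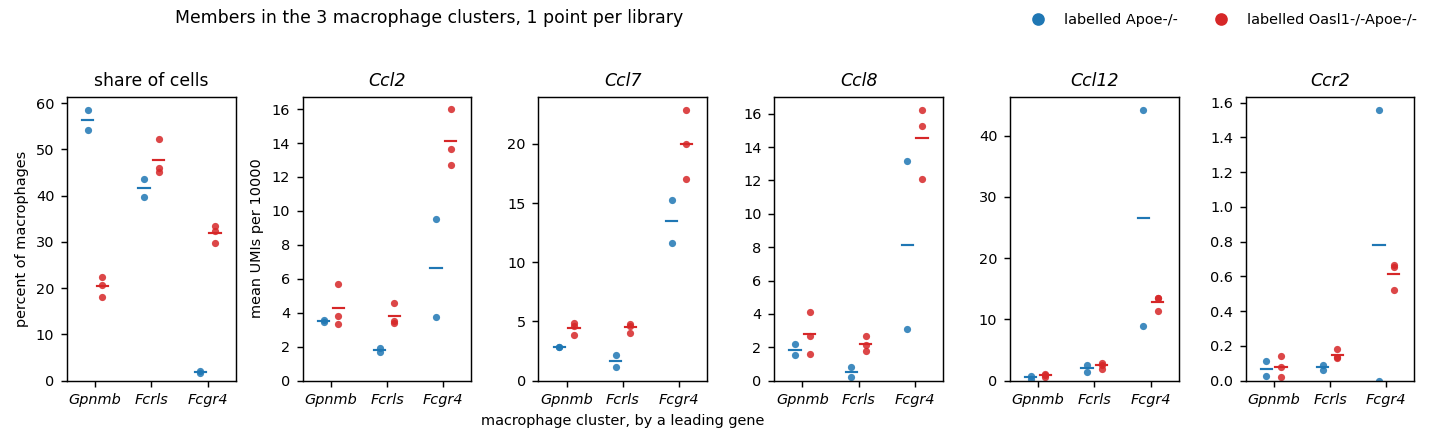
Share of macrophages (first panel, percent) and mean UMIs per 10000 of each gene (other panels) in the 3 macrophage clusters, named on the x axis by a leading gene; points are libraries and ticks group means, blue for Apoe-/- and red for those labelled Oasl1-/-Apoe-/-. The Fcgr4 cluster held 2.06 and 1.68% of macrophages in the Apoe-/- libraries (6 and 5 cells) and 29.7 to 33.5% in the others, where its level of each ligand was the highest of the 3.

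Macrophages fell into 3 clusters that differed in these genes, although the genes took no part in the clustering. One was led by Gpnmb, Fabp5 and Lpl, genes of lipid-laden macrophages, one by Fcrls, Cd72 and Adgre1, and one by Ccl12, Ccl8, Fcgr4, Ccl7 and Cxcl9. The cluster with Fcgr4 held 33.5, 29.7 and 32.4% of the macrophages labelled Oasl1-/-Apoe-/- and 53.8 to 63.3% of their Ccl2 UMIs, 60.97 to 67.9% of Ccl7, 69.7 to 79.8% of Ccl8, 73.3 to 80.7% of Ccl12 and 59.7 to 65.9% of Ccr2. Per cell it was at 16.02, 12.7 and 13.6 UMIs of Ccl2 per 10000 and 22.9, 17.0 and 20.01 of Ccl7. With 6 and 5 cells in the Apoe-/- libraries it could not be compared between groups. In the Apoe-/- libraries the Gpnmb cluster held most of the Ccl2 UMIs of macrophages (78.3 and 82.5%), of Ccl7 (72.2 and 86.4%) and of Ccl8 (84.2 and 82.5%), but of Ccl12 only 38.4 and 26.8%.

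Within the Fcrls cluster, Ccl2 was at 1.89 and 1.69 UMIs per 10000 in the Apoe-/- libraries and 4.58, 3.404 and 3.49 in the others (log2 difference 1.06, limma adjusted p = 0.000102), Ccl7 at 2.16 and 1.12 against 4.64, 4.04 and 4.80 (1.496, adjusted p = 0.000102) and Ccl8 at 0.224 and 0.840 against 2.13, 2.66 and 1.77 (2.16, adjusted p = 0.000633), where 1.22% of genes were called higher. Ccl12 (0.34, -0.064 to 0.75, adjusted p = 0.437) and Ccr2 (0.64, adjusted p = 0.301) did not pass there. Within the Gpnmb cluster Ccl7 alone passed, at 2.85 and 2.85 against 4.59, 4.86 and 3.88 (0.62, adjusted p = 0.000601), where 1.51% were called higher. Ccl2 (0.24, adjusted p = 0.541), Ccl8 (0.52, 0.298), Ccl12 (0.67, 0.223) and Ccr2 (0.11, 0.9496) did not. Part of the macrophage difference thus lay within a cluster for Ccl2, Ccl7 and Ccl8, while Ccl12 and Ccr2 passed in neither cluster that could be tested.

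**Figure D3:**
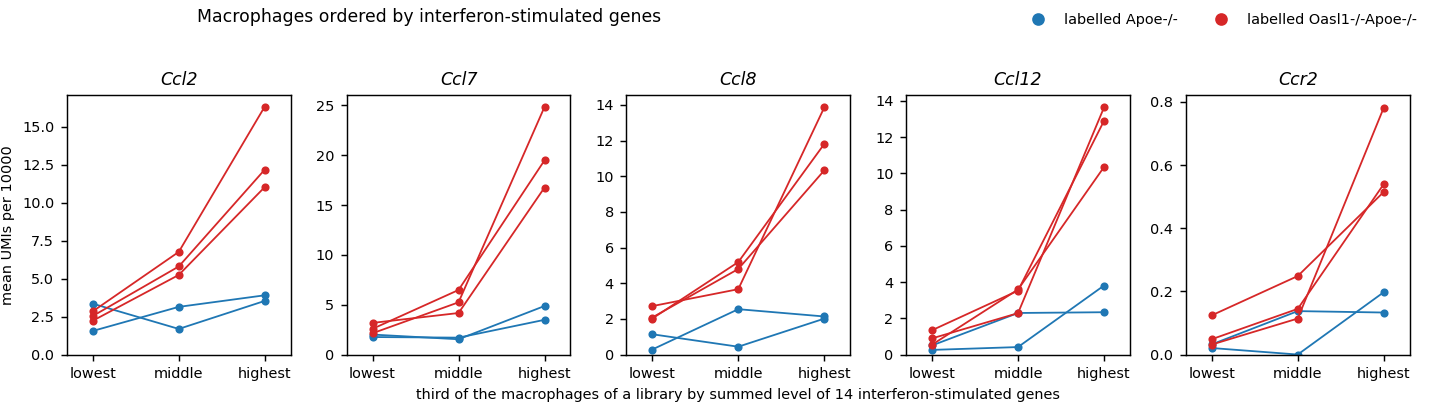
Mean UMIs per 10000 (y axis) of each gene (panels) in the macrophages of a library split into 3 equal groups by the summed level of 14 interferon-stimulated genes (x axis); each line is 1 library, blue for Apoe-/- and red for those labelled Oasl1-/-Apoe-/-. In the 3 red libraries every gene was highest in the group with the most interferon-stimulated transcripts.

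In the libraries labelled Oasl1-/-Apoe-/-, macrophage levels of the 5 genes followed those of interferon-stimulated genes. Cells switch these genes on in response to interferon. Macrophages of each library were split into 3 groups of equal size by the summed level of 14 such genes. In library 1 of those labelled Oasl1-/-Apoe-/-, Ccl7 was at 2.14, 5.24 and 24.9 UMIs per 10000 in the lowest, middle and highest group, and Ccl12 at 0.891, 2.29 and 13.6. Ccl2 was at 2.85, 6.76 and 16.3, Ccl8 at 2.72, 3.67 and 13.9 and Ccr2 at 0.0316, 0.114 and 0.782. The other 2 libraries had the same order, with Ccl12 at 0.543, 3.59 and 10.4 in library 2 and 1.34, 3.53 and 12.9 in library 3.

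In the Apoe-/- libraries, whose macrophages had far lower sums of these genes (medians of 12.3 and 11.98 in the highest group, against 54.1 to 59.3), the order was weaker. Ccl2 was at 3.35, 1.69 and 3.53 in library 1 and 1.55, 3.14 and 3.90 in library 2, and Ccl12 at 0.503, 2.29 and 2.34 and at 0.256, 0.413 and 3.81. Ccl7 was at 2.004, 1.534 and 4.87 and at 1.757, 1.696 and 3.484. Ccl8 was at 1.138, 0.4389 and 2.014 and at 0.2825, 2.544 and 2.135, and Ccr2 at 0.02062, 0 and 0.1974 and at 0.03215, 0.1375 and 0.133. Cells of the highest group had fewer UMIs than those of the lowest in every library. Split by 7 foam macrophage genes instead, the 3 libraries labelled Oasl1-/-Apoe-/- had Ccl2 highest in the lowest group, at 13.2, 7.35 and 5.36 from lowest to highest in library 1, 9.88, 3.98 and 4.60 in library 2 and 10.6, 4.54 and 5.35 in library 3. Both Apoe-/- libraries had it highest in the highest group, at 2.18, 1.37 and 5.01 and at 1.94, 2.81 and 3.84.

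Split by 14 NF-kB and cytokine response genes, Ccl2 was at 4.92, 9.78 and 11.2 in library 1 of those labelled Oasl1-/-Apoe-/-, 4.82, 7.07 and 6.60 in library 2 and 4.34, 5.80 and 10.4 in library 3. In the Apoe-/- libraries it was at 1.61, 1.004 and 5.95 and at 2.64, 2.74 and 3.21. Ccl2 was highest in the highest group in 4 of the 5 libraries.

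All 14 interferon-stimulated genes were called higher in macrophages labelled Oasl1-/-Apoe-/-, with a median log2 difference of 1.91 beside -0.0092 over all genes. Ifi27l2a, a short interferon-induced gene, was at 1.51 ± 0.0520 (SD, n = 2) against 13.7 ± 0.539 UMIs per 10000 (SD, n = 3; limma adjusted p = 5.15e-13). Isg15, a ubiquitin-like protein, was at 0.675 ± 0.0166 against 3.34 ± 0.0124 (adjusted p = 1.87e-10). In monocytes 10 of 14 were called higher and in fibroblasts 7 of 13.

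Other chemokines did not move as one in macrophages, where 8.0% of all genes were called lower. Of 5 other CC chemokines that could be tested, Ccl5 (0.663 ± 0.0495 against 2.49 ± 0.758 UMIs per 10000, SD, limma adjusted p = 7.42e-06) and Ccl4 (17.0 ± 0.710 against 25.6 ± 2.84, adjusted p = 9.82e-05) rose and Ccl6 fell (log2 -0.30, adjusted p = 0.0412). The CC receptor Ccr1 (log2 -0.78, limma adjusted p = 0.0130) and the chemokine-binding receptor Ccrl2 (-0.30, adjusted p = 0.00639) fell. Of 13 other chemokine and chemokine receptor genes, the T cell attractants Cxcl9 (log2 1.61) and Cxcl10 (0.53), the chemokine Cxcl16 and the receptors Cxcr3 and Cx3cr1 rose, and Pf4 and the neutrophil attractants Cxcl1 (-0.75) and Cxcl2 (-0.23) fell.

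NF-kB targets were mixed in macrophages: of 13 tested, Nfkbiz rose (0.29), Il1a (-1.70), Nfkbia (-0.28) and Tnf (-0.26) fell and the others did not pass. Of 10 early response genes, which also respond to cell dissociation, 7 rose, among them Fos (0.51, limma adjusted p = 1.52e-05) and Hspa1a (1.201, adjusted p = 7.50e-08), and their part in the chemokine result was not tested. Split by these genes, macrophages labelled Oasl1-/-Apoe-/- had Ccl2 at 6.47, 8.14 and 11.3 UMIs per 10000 in library 1, 4.38, 5.36 and 8.75 in library 2 and 4.21, 7.06 and 9.25 in library 3, rising in each. Apoe-/- library 1 rose as well, at 1.44, 2.10 and 5.03, a wider range than with the interferon-stimulated genes, and library 2 did not, at 3.28, 2.63 and 2.69. Of 7 foam macrophage genes 6 fell, including Fabp5 (-1.87), which carries fatty acids, and Gpnmb (-1.28). Of 5 genes of resident macrophages that could be tested Mrc1 and Gas6 fell, and of 3 genes of monocyte supply and growth Nr4a1 rose (0.30).

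In monocytes, 4 of 8 other CC chemokines rose, namely Ccl17, Ccl9, Ccl3 (7.50 ± 0.151 against 14.6 ± 4.53 UMIs per 10000, SD, limma adjusted p = 0.000511) and Ccl4 (9.91 ± 1.25 against 20.9 ± 8.28, adjusted p = 0.000573), and Cxcl3, a neutrophil attractant, rose from 3.01 ± 0.859 to 11.3 ± 1.91 (adjusted p = 8.20e-09), as did Cxcl2, Cxcl9 and the cytokine gene Il1a. Here 1.64% of genes were called lower, among them Ccrl2 (log2 -0.82) and Nfkbia (-0.34). Erythroid markers in the monocyte class summed to 36.0 and 95.8 UMIs per 10000 in the Apoe-/- libraries and 15.3, 0.655 and 0.578 in the others, and their part was not tested.

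In fibroblasts, where 0.725% of genes were called lower and none of these lists held one, Ccl2 and Ccl7 rose beside 8 other chemokine genes. They were Cxcl1 (4.997 ± 2.87 against 19.6 ± 3.24 UMIs per 10000, SD, limma adjusted p = 6.06e-12), Cxcl2 (0.324 ± 0.245 against 5.47 ± 1.87, adjusted p = 3.04e-15), Cxcl10, Cxcl12, Cxcl14, Ccl5, Ccl11 and Ccl19. Of 11 NF-kB and cytokine genes, Cebpb, Nfkb1, Il6 and Nfkbia rose, with log2 differences of 0.52 to 1.002. None of the 10 early response genes was called in fibroblasts.

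Across 45 profiles (9 cell types in each of 5 libraries) the gene most like Ccl2 was Ccl7, with a Pearson correlation of 0.947 on the log2 scale, followed by Pdpn (0.884), a surface glycoprotein of stroma and some macrophages, Mmp19 (0.803), a matrix protease, Ifi204 and Nt5dc2. Pdpn, Mmp19, Lpl and Nt5dc2 came next after Ccl2 for Ccl7. Ccl8 was most like Tmem178 (0.948), and after Scamp5 came Fcrls (0.887), an Fc receptor-like gene of macrophages, Ms4a14 and Htr2b. Ccl12 was most like Gdf3 (0.895) and C1qa (0.893), a complement gene of macrophages, then AI427809, Trem2 and Creg2, and its correlation with Ccl8 was 0.807. Ccr2 was most like Itgb7 (0.953), an integrin chain of leukocytes, followed by Ms4a6b (0.935), Bin2 and Arhgap15. Between Ccr2 and Ccl2 it was 0.152. Profiles of a library share its depth and handling, so these are descriptions with no test.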

How the data were processed

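Single-cell RNA-seq (10x 3′ chemistry) was read from 1 table of 16498 genes and 18260 cells in 5 libraries, fewer cells than the study's account gives. The authors aligned reads to mm10 with Cell Ranger 3.1.0 and normalised with Seurat 4.0.3. As deposited, each value was ln(1 + x), a natural log in which x is a cell's UMIs per 10000. Undoing the log gave cell sums of 10000 (largest difference 0.00344), and 100% of values came out as whole UMIs (tolerance 0.01). The authors removed doublets and low-quality cells before deposit, and no further cell filter or doublet caller was used here. The fewest genes in a cell were 201, and the highest mitochondrial share was 9.99%.

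Cells were clustered (2000 variable genes without 53 chemokine system genes, 12 components, 20 neighbours, Leiden resolution 1, leidenalg 0.10.2) and clusters named from at least 3 markers. Xcr1 was both a chemokine receptor left out of clustering and a dendritic marker. Mean UMIs per 10000 per library and cell type were compared with limma 3.58.1 (lmFit, eBayes with trend) on log2(mean + 0.05), for types with at least 20 cells in every library and genes with a mean of at least 0.05, with Benjamini-Hochberg adjustment over all genes and a threshold of 0.05. Since the values are logs and no counts, a count model was not used, and limma-voom on recovered UMIs was an alternative. Shares of summed UMIs per 10000 and of cells were compared with exact two-sided permutation tests. The former were adjusted over the family, and the latter were not adjusted. For shares of cells, each cell was thinned to 1000 UMIs. On simulated data for macrophages (7927 genes), 78% of genes raised by 1 on the log2 scale and 100% of those raised by 2 were called, 50% of those lowered by 1 and 90% of those lowered by 2, and 0.0777% of unchanged genes.

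The 5 genes, the gene lists (other CC chemokines and receptors, other chemokines, monocyte supply, NF-kB, interferon-stimulated, early response, foam and resident macrophage genes) and the tests were chosen with earlier results of these data known. List genes were named where past the threshold in macrophages, monocytes or fibroblasts, except that only examples of the interferon-stimulated, early response and foam genes are given, and the 5 genes most correlated with each of the 5 were named. Values of some genes that these rules name are not reported here. Sequences came from RefSeq (GRCm38.p6). Promoters of Ccl8, Ccl12 and Ccr2 were matched.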

Additional observations from a re-analysis of the deposited data

How the results depend on the processing

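Each result was recomputed with other pseudocounts, without the filter, with means of log values, with limma-voom, without mitochondrial, haemoglobin and ribosomal genes, with other ways of naming cells, and without each library. Of 492 such values 438 stayed the same. For tested differences this meant the same direction and side of the threshold. For source shares it meant the same direction and a change smaller than the larger SD of the groups. All 5 genes stayed called in the whole aorta in every alternative. The 19 calls within cell types ranged from 14 to 20, except 11 with cells gated one by one by markers. Of the 19, the low-UMI cluster held 4, and neutrophils and the other unnamed clusters 1 each. None of these types was tested under the gate or with the chemokine genes in the clustering, so those counts cover fewer types. Under the gate, calls in endothelial cells went from 1 to 3. Monocytes numbered 34 to 53 per library there and their calls were lost (limma adjusted p = 0.0902 for Ccl2, 0.342 for Ccl7, 0.440 for Ccl12). The cause of that loss was not tested. Without 1 library the calls within cell types ranged from 14 to 19, the fewest without Apoe-/- replicate 2. The 0 calls for differences between cell types became 2 without Apoe-/- replicate 1 and 1 without Apoe-/- replicate 2. The fall of -21.5 percentage points in the monocyte share of Ccl7 was -2.67 under the gate and -22.7 to -20.3 without 1 library.

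Values that were not called changed sign as follows. Ccl2 in cartilage-like cells was 0.0256 with means of log values, 0.0483 with the highest cells limited and 0.19 without Apoe-/- replicate 2 (range -0.42 to 0.19 without 1 library). Ccl7 there was 0.11 with means of log values, 0.27 with limma-voom, 0.00804 without mitochondrial, haemoglobin and ribosomal genes, 0.0439 with the highest cells limited, and 0.16 and 0.30 without replicate 1 of the libraries labelled Oasl1-/-Apoe-/- and of Apoe-/- (range -0.30 to 0.30 without 1 library). Ccr2 was -0.26 in dendritic cells without Apoe-/- replicate 2 (range -0.26 to 0.89 without 1 library) and -0.12 in monocytes under the gate.

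Replicate numbers were taken as labels only. Deviations of same-numbered libraries correlated between -0.0584 and 0.0429. The deviations of the 2 Apoe-/- libraries mirror each other exactly, so these values cannot decide whether same-numbered libraries were paired. With the replicate number as a block, 20 calls within cell types and 5 in the whole aorta were made, and Ccl2 in neutrophils was lost (adjusted p = 0.687). Macrophage clusters on their own, the omission of the low-UMI cluster, the limit on the highest cells and robust shrinkage (14 calls) were chosen after the data were seen. Apoe-/- macrophages and monocytes numbered 108 to 297 per library, which limits their precision.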
